A study of Mus musculus with 16 samples.

Results

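The growth hormone, STAT5 and IGF1 axis was followed here through 10 genes, taken with every array probe that carries their symbols. The genes were Ghr, Prlr, Stat5a, Stat5b, Igf1, Igfals, Socs2, Cish, Bcl6 and Cux2, with 16 of the 41174 probes of the array and 10 of its 19096 gene symbols. The rule takes them by symbol and uses no measured value, though the genes were chosen with earlier results of these data known.

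RNA was measured in the non-tumorous liver of 16 male mice at 57 weeks of age on 1-colour Agilent arrays, with 1 mouse on each array and 4 mice in each of 4 groups. All mice, the controls included, had received the liver carcinogen N-diethylnitrosamine (DEN) at 90 mg/kg and 5 weeks of age. The groups were wild type C57BL/6J mice after DEN alone (WT DEN) or with phenobarbital (PB), an activator of the nuclear receptor CAR, in the drinking water at 0.5 g/l from 7 weeks of age (WT DEN + PB), and Gadd45b null mice under the same treatments (KO DEN and KO DEN + PB). The null allele was carried throughout the body and its stock is listed on a mixed B6;129S6 background, so strain and genotype cannot be told apart. There was no group without DEN, and the time of day and the feeding state at collection are not given in the sources used here.

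Growth hormone from the pituitary binds its receptor on hepatocytes, and the kinase JAK2 then phosphorylates STAT5, which enters the nucleus and binds DNA. STAT5 drives Igf1, Igfals, Socs2 and Cish and lowers Bcl6, whose protein can occupy STAT5 sites as a repressor. In male mice the hormone comes in pulses separated by quiet intervals, and this pattern keeps many liver genes at a male or a female level.

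For 2 of these genes the sequence at an annotated start is shown, because they stood opposite each other between mice in the values given further on. Each run covers 300 bases, 250 before and 50 after the start, from RefSeq on build GRCm38.p6, with capitals marking the 9-base form TTCNNNGAA to which STAT factors bind. The form reads alike on both strands. The Cish run lies at chr9:107296409-107296708 on the plus strand and the Bcl6 run at chr16:23981234-23981533 on the minus strand.
Cish: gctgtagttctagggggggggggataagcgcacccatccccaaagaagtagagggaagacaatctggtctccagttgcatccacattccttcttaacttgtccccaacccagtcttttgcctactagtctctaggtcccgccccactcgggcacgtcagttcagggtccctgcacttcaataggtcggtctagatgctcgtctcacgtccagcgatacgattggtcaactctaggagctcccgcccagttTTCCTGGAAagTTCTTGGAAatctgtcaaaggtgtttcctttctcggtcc
Bcl6: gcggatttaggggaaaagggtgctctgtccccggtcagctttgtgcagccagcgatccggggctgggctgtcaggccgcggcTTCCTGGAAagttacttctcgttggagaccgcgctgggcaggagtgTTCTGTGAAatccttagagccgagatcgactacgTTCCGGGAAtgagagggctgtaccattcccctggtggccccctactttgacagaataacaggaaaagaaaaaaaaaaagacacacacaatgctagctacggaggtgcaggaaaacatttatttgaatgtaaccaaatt
The Cish window holds 2 such forms, which begin at its bases 251 and 262, just after the start. The Bcl6 window holds 3, which begin at bases 83, 129 and 163. Among the listed starts of Bcl6 this window was printed because it holds 3. Its count was thus fixed by the choice and is not a result to set against the shares of all promoters. The other listed start of Bcl6, in the window chr16:23988803-23989102, holds 1. Of the 32851 promoters in the same table, 8.30% hold at least 1 such form, 0.457% at least 2 and 0.0335% at least 3. For 9 of the 10 genes the table lists 18 starts, and 6 of these, in Cish, Bcl6, Igfals and Prlr, hold the form. Socs2 was not among the genes found there. A match of letters is a description and does not show that STAT5 bound there.

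Between 58.3% and 67.7% of the spots of an array were well above background, and arrays of 1 group correlated at r = 0.970 to 0.986 over probes. The Gadd45b probe was well above background on all 8 WT arrays and on 0 of the 8 KO arrays. Values are log2 signals in which 0 is the 75th percentile of the array, so that 1 unit is 2-fold, and a level of 1 probe is not set against that of another. Each gene is given by its brightest probe. A gene was called changed where it differed at least 1.5-fold and its p from limma, adjusted by Benjamini-Hochberg over all 24455 tested probes, was below 0.05. The 4 against 4 exact permutation test, given two-sided for single genes, has 70 assignments and cannot go below p = 0.0286. In bulk liver, fewer cells of a type and less RNA per cell cannot be told apart.

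Of the 10 genes 9 were tested, on 15 probes, and limma called none of them under PB or between genotypes. PB in WT called 0 of 9 (0.737% of 13305 tested genes were called), PB in KO 0 of 9 (2.13% of genes), the genotypes under DEN 0 of 9 (2.76%), the genotypes under DEN + PB 0 of 9 (7.61%), and the difference between the PB effects, WT minus KO, 0 of 9 (0% of genes). An unadjusted p under 0.05 was reached by Igf1 and Ghr for PB in WT (8.31% of all genes), by Stat5b for PB in KO (13.3%), by Bcl6 for the genotypes under DEN (18.2%), by Igf1 for the genotypes under DEN + PB (23.4%), and by Ghr for the difference of the PB effects (6.62%). The linear model without moderation of variances also called 0 in all 5 comparisons. Cux2, a repressor of liver genes that is known as female-biased, was well above background on 0 of the 16 arrays, and no change is given for it.

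**Figure D1:**
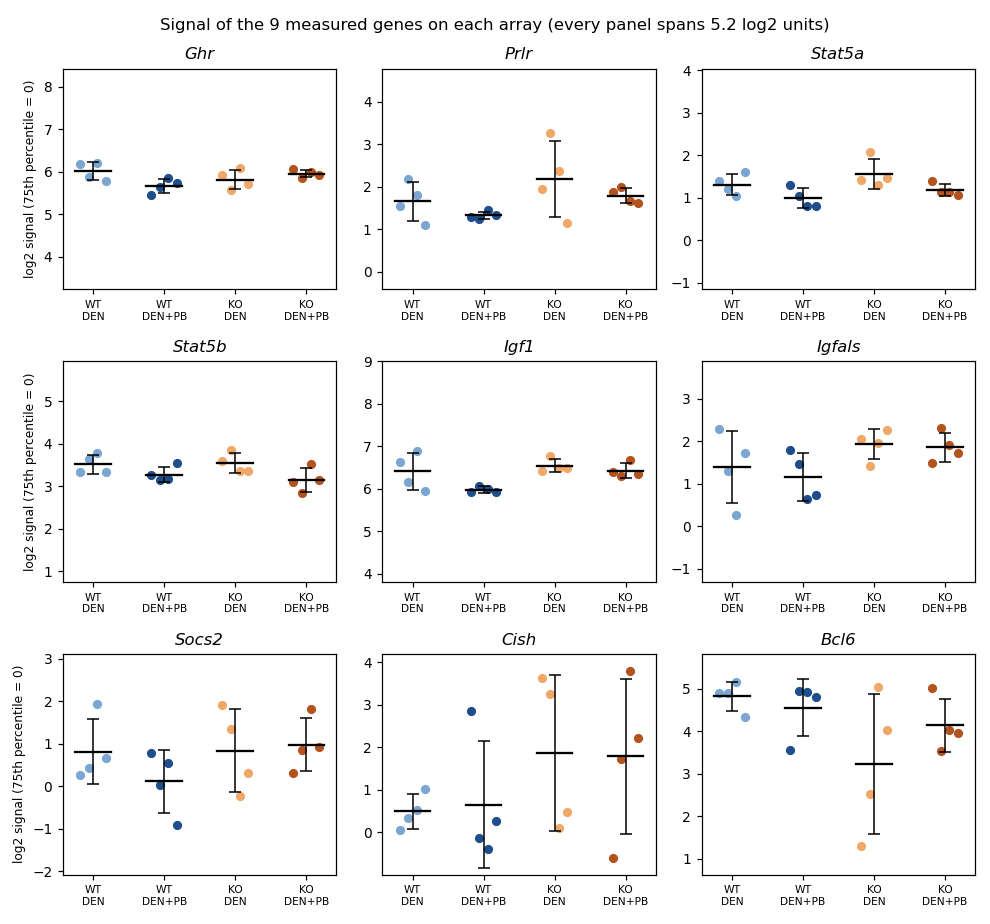
Log2 signal of the 9 measured genes on each of the 16 arrays (vertical axis, 0 at the 75th percentile of the array; every panel spans the same range), by group. Points are mice, the horizontal line is the group mean and the bar is 1 SD (n = 4). The points of Cish, Bcl6 and Socs2 are spread widely inside a group, while those of Ghr, Igf1 and Stat5b lie close together.

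Ghr encodes the growth hormone receptor. In WT DEN mice its log2 signal was 6.18, 5.88, 6.21 and 5.79, and in WT DEN + PB mice it was 5.45, 5.64, 5.84 and 5.73. KO DEN mice had 5.91, 5.57, 6.08 and 5.70 and KO DEN + PB mice 6.06, 5.85, 6.00 and 5.92. All mice of KO DEN + PB lay above all of WT DEN + PB, though the nearest mice almost touched, while every other pair of groups compared overlapped. The change with PB in WT was -0.35 ± 0.15 (SE, adjusted p = 0.613 by limma), and the other probes of the gene gave -0.50 and -0.41. KO DEN + PB exceeded WT DEN + PB by 0.29 ± 0.15 (adjusted p = 0.263 by limma, exact permutation p = 0.0286). For this difference the other probes gave 0.43 and 0.25 (adjusted p = 0.115 and 0.498 by limma).

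Prlr, the prolactin receptor, which also signals through STAT5, showed the same order under PB. Its log2 signal was 1.29, 1.25, 1.45 and 1.33 in WT DEN + PB and 1.89, 2.01, 1.68 and 1.62 in KO DEN + PB, with no overlap. Under DEN alone it ranged from 1.10 to 2.18 in WT and from 1.14 to 3.27 in KO, so that those groups overlapped. The genotypes differed by 0.47 ± 0.33 under DEN + PB (SE, adjusted p = 0.413 by limma, exact permutation p = 0.0286), and the other probes gave 0.75 (adjusted p = 0.066) and 0.14.

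By their brightest probes the transcription factors themselves varied little. Stat5b, the form that predominates in liver, averaged 3.52 ± 0.22 for WT DEN and 3.27 ± 0.18 for WT DEN + PB, against 3.54 ± 0.24 for KO DEN and 3.15 ± 0.28 for KO DEN + PB (SD, n = 4). Its change with PB in KO was -0.39 ± 0.18 (SE, adjusted p = 0.38 by limma), and the groups overlapped. Stat5a, its close homologue, averaged 1.31 ± 0.24, 0.99 ± 0.24, 1.57 ± 0.35 and 1.18 ± 0.14 in the same order. All of its adjusted p-values by limma were between 0.428 and 0.994. In both genes the mean under PB was the lower one in either genotype by the brightest probe. The second probe of Stat5b gave 0.06 with PB in WT and -0.22 with PB in KO.

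Igf1, the growth factor that the liver releases into blood, had log2 signals of 6.64, 6.16, 6.89 and 5.94 in WT DEN and of 5.91, 6.07, 6.00 and 5.93 in WT DEN + PB. In KO it was 6.42, 6.78, 6.49 and 6.49 under DEN and 6.39, 6.30, 6.67 and 6.34 under DEN + PB. By this brightest probe the WT DEN + PB mice lay close together at the low end of all mice, below every KO mouse and overlapping with WT DEN. By the second probe they were also below every KO mouse. There they ranged from 2.38 to 3.44, with the largest SD of the 4 groups (0.46). Against KO DEN + PB the difference, KO minus WT, was 0.45 ± 0.18 (SE, adjusted p = 0.156 by limma, exact permutation p = 0.0286), and the second probe gave 0.61 (adjusted p = 0.102). The change with PB in WT was -0.43 ± 0.18 (adjusted p = 0.604), and -0.57 by the second probe. Leaving out WT DEN replicate 3 took the brightest probe to -0.27, and leaving out WT DEN replicate 4 took it to -0.58. Igf1 lies on chromosome 10, as do Socs2 and the targeted gene Gadd45b itself.

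Igfals encodes the acid-labile subunit that holds IGF1 in the circulating complex. WT DEN mice averaged 1.40 ± 0.85 and WT DEN + PB mice 1.16 ± 0.56, while KO DEN mice had 1.93 ± 0.35 and KO DEN + PB mice 1.86 ± 0.35 (SD, n = 4). The genotype difference of 0.69 ± 0.36 under DEN + PB did not pass the test (adjusted p = 0.265 by limma, exact permutation p = 0.114), and the groups overlapped.

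Under DEN + PB, Ghr, Prlr and Igf1 were thus the 3 of 9 genes whose KO and WT mice did not overlap by the brightest probe, against 17.3% of the 13305 tested genes. The values within the 4 slides, whose sign the lack of overlap already fixes, were 0.28, 0.33, 0.40 and 0.16 for Ghr, 0.37, 0.56, 0.72 and 0.23 for Prlr and 0.27, 0.46, 0.39 and 0.67 for Igf1. Another probe of Ghr did overlap, at 3.90 to 4.26 in WT and 3.98 to 4.50 in KO. Another probe of Prlr also did, at -2.11 to -1.65 in WT and -1.89 to -1.47 in KO. The remaining probes of these genes did not overlap. The median over the 9 genes was 0.45, against 0.03 over all tested genes. The other comparisons had 0 of 9 genes without overlap, where 5.16% (PB in WT), 8.6% (PB in KO) and 10.9% (genotypes under DEN) of all genes did not overlap. For PB in WT the median of the 9 genes was -0.32 against -0.02 for all genes, with 8 of the 9 lower. Without scaling of the arrays the median of all probes was -0.29 for KO minus WT under DEN + PB, and Ghr then came to -0.047 where Igf1 stayed at 0.11.

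Cell type markers moved with the same comparison. The 10 hepatocyte markers summed to 1688 to 2102 times the 75th percentile in WT DEN + PB and to 2091 to 2700.1 times in KO DEN + PB. Their median difference was 0.28 on the log2 scale, and 1 of 10 was called higher (1.76% of all genes). The 9 tested leukocyte markers, which include Ptprc, Cd68 and Adgre1, summed to 25.3 to 29.5 in WT DEN + PB and to 9.77 to 14.8 in KO DEN + PB, and 8 of 9 were called lower (5.85% of all genes). Under DEN alone they summed to 22.3 to 40.6 in WT and to 13.9 to 17.9 in KO, with 3 of 9 called lower (1.74% of all genes). Lower in KO DEN + PB were also 2 of 6 endothelial, 2 of 7 stellate and 3 of 5 cholangiocyte markers, to be read against the same 5.85%. Of 2 tested adipocyte markers both, Cfd and Retn, were called lower in KO DEN (1.74% of all genes), and the listed Adipoq, Plin1 and Lep were not tested. Of 4 erythroid and 2 pancreatic acinar markers none was called in any comparison. For PB in WT the hepatocyte markers had a median change of -0.27, with 0 called (0.737% of all genes). In that comparison 2 of 5 cholangiocyte markers were called higher (0.654% of all genes). The part of these shifts in the values of the axis was not tested.

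**Figure D2:**
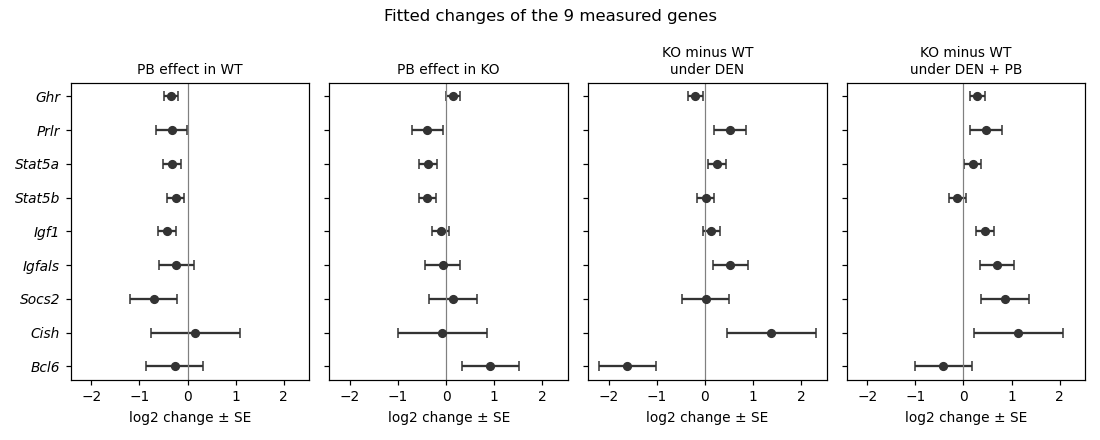
Fitted log2 change of each of the 9 measured genes (points, with bars of 1 SE from limma) in the 4 comparisons, on 1 horizontal scale. The bars of Cish, Bcl6 and Socs2 are the longest, and the largest point is that of Bcl6 for the genotypes under DEN, at -1.61.

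Between the mice of 1 group, in contrast, some genes of the axis were among the most variable in the liver. Over the 13281 genes measured on all 16 arrays, the median SD of mice around their group mean was 0.27 log2 units and the 90th percentile was 0.52. Cish had an SD of 1.51, rank 12 from the largest and above 99.9% of genes. Bcl6 had 0.96 (rank 119, above 99.1%) and Socs2 0.79 (rank 285, above 97.9%). Igfals at 0.57 and Prlr at 0.51 lay near the 90th percentile. By the brightest probe Stat5a (0.25), Igf1 (0.25), Stat5b (0.23) and Ghr (0.18) were at or below the middle of all genes. By that probe the feedback genes and the repressor varied, and the receptor, the STAT5 genes and Igf1 did so far less. Some other probes spread more widely. The SD within single groups was 0.38 to 0.43 for the second probe of Stat5b and 0.14 to 0.46 for that of Igf1. For another probe of Ghr it was 0.06 to 0.52. Cish, Socs2 and Bcl6 each had only 1 probe with their symbol, so their spread could not be checked on another probe.

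**Figure D3:**
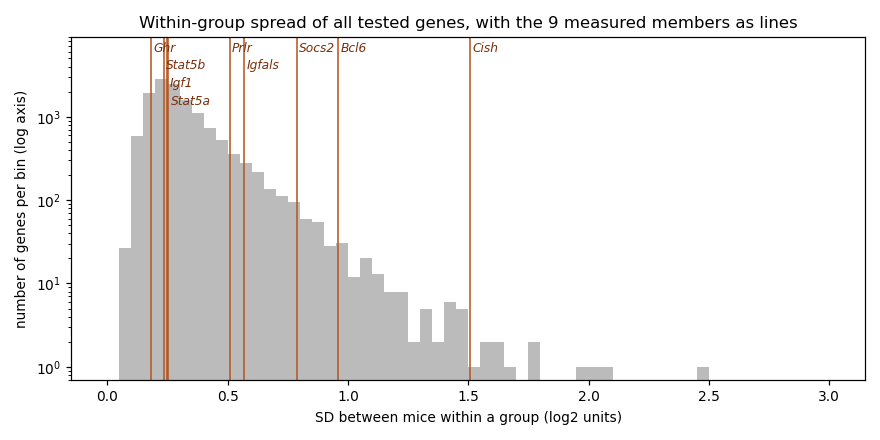
Number of genes (log axis) by the SD of the mice around their group mean, in log2 units and bins of 0.05, with the 9 measured genes of the axis as vertical lines. Ghr, Stat5b, Igf1 and Stat5a lie in the bulk, and Socs2, Bcl6 and Cish lie in the tail at 0.79, 0.96 and 1.51.

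Cish encodes an SH2-domain protein that STAT5 induces and that damps signalling by cytokine receptors. Its log2 signal was 0.06, 0.35, 0.53 and 1.03 in WT DEN and 2.85, -0.13, -0.39 and 0.26 in WT DEN + PB. In KO it was 3.64, 3.26, 0.11 and 0.48 under DEN and -0.60, 1.72, 3.81 and 2.23 under DEN + PB. Mice above the highest WT DEN mouse were found in each of the other three groups, beside mice of the same group with low signal, and the range over the 16 mice was 21.3-fold. The KO mean was the higher one by 1.38 ± 0.93 under DEN and by 1.14 ± 0.93 under DEN + PB (SE, adjusted p = 0.424 and 0.488 by limma), with overlapping groups. Within slides the DEN + PB difference ran from -1.14 to 4.20. Leaving out KO DEN replicate 1 took the first difference to 0.79, and leaving out KO DEN + PB replicate 3 or 1 took the second to 0.47 or 1.94.

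Socs2, the feedback inhibitor whose loss gives giant mice, had log2 signals of 0.26, 0.42, 1.94 and 0.66 in WT DEN and of 0.79, 0.02, 0.54 and -0.90 in WT DEN + PB. In KO it was 1.90, 1.36, -0.24 and 0.32 under DEN and 0.32, 0.86, 1.83 and 0.91 under DEN + PB. The groups overlapped, and the range over the mice was 7.16-fold. The change with PB in WT was -0.70 ± 0.49 (SE, adjusted p = 0.873 by limma), and the genotypes differed by 0.87 ± 0.49 under DEN + PB (adjusted p = 0.31). These came to -0.33 without WT DEN replicate 3 and to 0.53 without WT DEN + PB replicate 4. Without WT DEN + PB replicate 1 they came to -0.93 and 1.09.

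Bcl6 encodes the zinc finger repressor introduced above. Its log2 signal was 4.90, 4.90, 5.16 and 4.34 in WT DEN and 3.55, 4.94, 4.92 and 4.81 in WT DEN + PB. In KO it was 1.29, 2.53, 5.03 and 4.02 under DEN and 5.02, 3.53, 4.04 and 3.96 under DEN + PB. The lowest mice were 2 of KO DEN, while another mouse of that group was as high as any WT DEN mouse but 1, and the range over the mice was 14.6-fold. The KO DEN mean was lower by 1.61 (log2 change -1.61 ± 0.59, SE, adjusted p = 0.14 by limma, exact permutation p = 0.114), and -2.38 and -3.87 on the 2 slides that held both groups. The 2 higher KO DEN mice were on a slide without WT DEN mice, so these slide values leave them out. Without KO DEN replicate 3 the change was -2.21 and passed the test (adjusted p = 0.0347 by limma), whereas without KO DEN replicate 1 it was -0.96 (adjusted p = 0.307).

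The mice with high Cish tended to have high Socs2 and low Bcl6. Correlations were taken over the 16 mice on deviations from the group means, for all 36 pairs of the 9 genes, with p-values from 100000 permutations within groups. Of these, 5 had an unadjusted p under 0.05 and 0 passed the Benjamini-Hochberg adjustment. Cish and Bcl6 had r = -0.82 (permutation p = 0.0033, adjusted p = 0.119) and rho = -0.89 (permutation p = 0.00373, adjusted p = 0.134). Without the 2 mice farthest in Cish r was -0.80, and it was -0.94 over the 8 WT and -0.81 over the 8 KO mice. The WT value includes WT DEN + PB replicate 1, the WT mouse farthest from its group mean in both genes (2.20 in Cish, -1.01 in Bcl6). An r over the WT mice without it was not taken. Over the mice of all groups without it r was -0.80. Among 13280 other genes, Bcl6 was the second most negative for Cish, and Cish was the most negative for Bcl6.

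Cish and Socs2 had r = 0.72 (permutation p = 0.00951, adjusted p = 0.171) and rho = 0.73, and r = 0.76 without the 2 farthest mice. This r was 0.35 over the WT and 0.95 over the KO mice, a difference that was not tested. Socs2 ranked 26 from the highest of the 13280 genes for Cish. Socs2 and Bcl6 had r = -0.64 (permutation p = 0.0354, adjusted p = 0.255), with -0.18 in WT and -0.88 in KO. With slide means removed Cish and Bcl6 had -0.82 (adjusted permutation p = 0.023), and Cish and Socs2 had 0.66, which did not pass the adjustment. These permutations moved mice within groups and did not keep them to their slide. The p of 0.023 is therefore not a test that takes the slides into account. Each slide held too few mice for a value of its own. As measures of array quality, the 75th percentile of the processed signal had r = -0.07 with Cish and the share of spots above background had r = 0.33 with Cish and 0.58 with Socs2 (permutation p = 0.0351, adjusted p = 0.211 over 6 such relations). Without the 2 arrays farthest in the measure these r were 0.31, 0.14 and 0.37. The phase of the hormone pulse in each mouse was not measured.

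**Figure D4:**
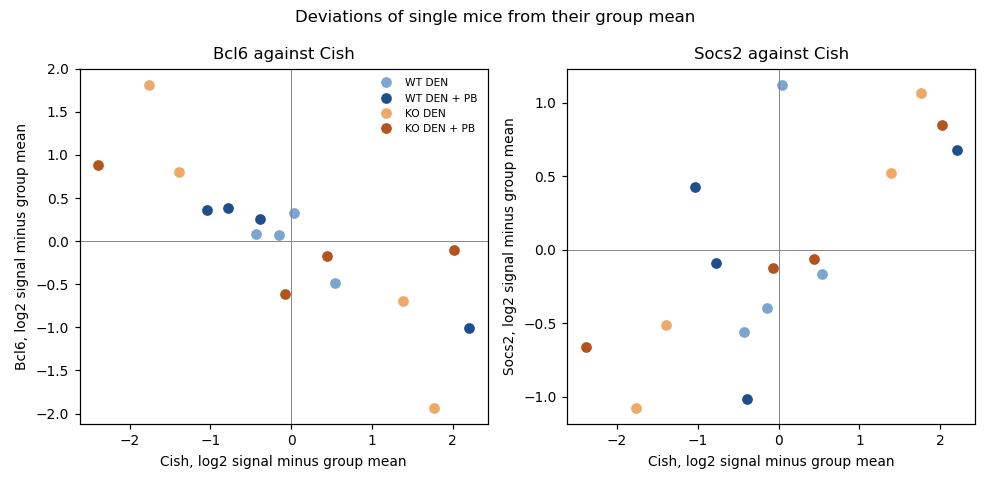
Each point is 1 mouse, at its log2 signal minus the mean of its group, for Bcl6 (left) and Socs2 (right) against Cish, coloured by group (n = 16). Bcl6 falls as Cish rises (r = -0.82) and Socs2 rises with it (r = 0.72), and in these values neither relation passed adjustment over the 36 pairs. With slide means removed the first passed, but by permutations that did not keep mice to their slide.

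Other genes of receptor signalling were read from a list of 16, of which 15 were tested. PB called 0 of 15 in either genotype. Between genotypes 1 of 15 was called higher in KO under DEN (1.02% of all genes) and 2 of 15 under DEN + PB (1.76%), with none lower. Stat3, the STAT factor of interleukin 6 and leptin signalling, was higher in KO by 1.14 ± 0.28 under DEN (SE, adjusted p = 0.0402 by limma) and by 1.00 ± 0.28 under DEN + PB (adjusted p = 0.0425). Its log2 signal was 3.67, 3.10, 3.36 and 3.25 in WT DEN against 3.72, 5.31, 4.20 and 4.70 in KO DEN, and 3.45, 3.44, 2.53 and 3.22 in WT DEN + PB against 3.91, 4.21, 4.30 and 4.23 in KO DEN + PB. The genotypes did not overlap under either treatment. Both calls lie close to the threshold and were lost when 1 of 8 mice or 1 of 7 mice was left out. Pik3r1, a regulatory subunit of PI3-kinase, was higher in KO DEN + PB by 0.92 ± 0.22 (adjusted p = 0.017 by limma), but only 2 of its 4 probes were called. Jak2, Socs1 and Socs3 were not called, with differences under DEN + PB of -0.33, 0.29 and 0.77.

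The IGF ligands, receptors and binding proteins made a list of 13 genes with 10 tested, and PB called 0 of 10 in either genotype. In both genotype comparisons 1 of 10 was called higher in KO and 1 lower, the same genes each time (of all genes, 1.02% were higher and 1.74% lower under DEN, and 1.76% and 5.85% under DEN + PB). Igfbp5, a binding protein of IGFs, had log2 signals of -4.03, -4.36, -4.43 and -3.88 in WT DEN and of -1.66, -2.92, -2.20 and -1.71 in KO DEN. Under DEN + PB it was -3.23, -3.67, -3.12 and -3.55 in WT and -1.44, -2.88, -2.59 and -2.02 in KO. The genotypes were clear of each other in both, with differences of 2.05 ± 0.31 (SE, adjusted p = 0.00236 by limma) and 1.16 ± 0.31 (adjusted p = 0.0295). Its signal was dim, and under normexp background correction the differences shrank to 0.25 and 0.20 and neither was called. Normexp called few probes at all, 21 in place of 750 under DEN and 50 in place of 1648 under DEN + PB. A second probe of Igfbp5, well above background on only 1 array of each group, was not tested and did not show the KO rise under DEN. Its means were -5.52 in WT DEN and -6.05 in KO DEN, and -6.34 in WT and -6.09 in KO under DEN + PB.

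Ide, the insulin-degrading enzyme, was 4.83, 4.51, 4.69 and 4.49 in WT DEN and 3.63, 3.92, 3.80 and 3.78 in KO DEN, and under DEN + PB it was 4.50, 4.83, 4.88 and 4.45 in WT and 4.08, 3.98, 3.75 and 3.91 in KO. Every KO mouse was below every WT mouse. The differences were -0.84 ± 0.14 (SE, adjusted p = 0.00551 by limma) and -0.73 ± 0.14 (adjusted p = 0.00556), and the second probe, at -0.98 and -1.06, was called as well. Igf1r, Insr, Igfbp1, Igfbp2 and Igfbp3 were not called in any comparison. The largest of their changes was that of Igfbp1 with PB in KO, -1.28 ± 0.40 (adjusted p = 0.135).

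**Figure D5:**
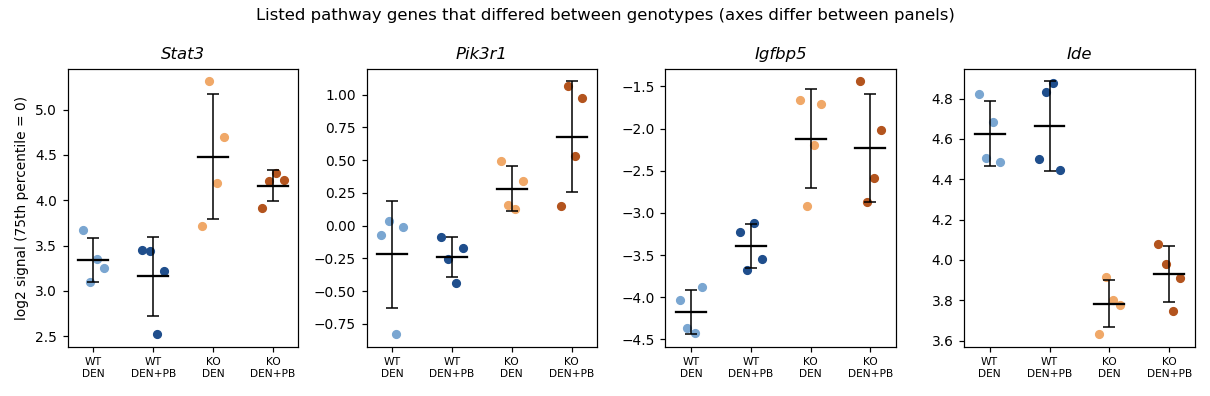
Log2 signal of Stat3, Pik3r1, Igfbp5 and Ide on each array by group (0 at the 75th percentile; the vertical axes differ between panels), with the group mean as a line and 1 SD as a bar (n = 4). By the brightest probes shown, KO mice lie above WT mice for the first 3 genes and below them for Ide, under either treatment. The Pik3r1 difference under DEN was not called (0.50, adjusted p = 0.207 by limma). Another of its probes overlapped there, at -0.18 to 0.71 in WT DEN and -0.15 to 0.85 in KO DEN.

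Sex-biased liver genes are a known output of the axis, and 2 lists of them were read. Of 22 male-biased genes 16 were tested, and limma called 0 of 16 in each of the 5 comparisons. Hsd3b5, a male-specific steroid enzyme, changed by -3.06 ± 1.01 with PB in WT (SE, adjusted p = 0.324) and by -1.41 with PB in KO (adjusted p = 0.672), neither past the test. Elovl3, a fatty acid elongase, had -0.63 and -0.86 (adjusted p = 0.586 and 0.134), whereas Cyp2d9 and Cyp4a12a had 0.06 and 0.15 in WT. The median change of the 16 genes was -0.19 in WT and 0.11 in KO.

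Of 23 female-biased genes 19 were tested, and with PB 4 of 19 were called higher in WT (0.654% of all genes) and 8 of 19 in KO (1.26%), with none lower (0.0827% and 0.872% of all genes). The largest rises were in cytochromes of the Cyp2b family, which CAR activates: Cyp2b13 gained 6.28 ± 0.52 in WT and 6.69 ± 0.52 in KO, and Cyp2b9 5.19 ± 0.43 and 5.95 ± 0.43 (SE, log2 scale, adjusted p from 9.16e-07 to 3.79e-06 by limma). The second probe of Cyp2b13 was well above background on all 8 WT arrays but on only 1 of 8 KO arrays. It gained 6.23 in WT and 2.11 in KO (adjusted p = 0.00672 and 0.458 by limma), and KO DEN + PB minus WT DEN + PB was -7.85 by it (adjusted p = 0.000438) where the brightest probe gave -0.28 (adjusted p = 0.789). Both probes of Cyp2b9 were called in both genotypes. These genes are close in sequence, and whether their probes tell them apart was not tested. Abcc4, a transporter, gained 3.49 ± 0.26 in WT and 2.51 ± 0.26 in KO, and Akr1b7, an aldo-keto reductase, 2.86 ± 0.22 and 3.86 ± 0.22. Normexp background correction called 21 probes for PB in WT in place of 163. Under it the Akr1b7 value in WT was 0.79 and was not called (adjusted p = 0.99996 by limma). Several of these are targets of CAR as well as female-biased genes, so that here CAR and the hormone axis cannot be told apart. Between genotypes 0 of 19 were called under DEN. Under DEN + PB 3 of 19 were higher in KO (1.76% of all genes), with Hamp2 at 1.86 and Akr1b7 at 1.74, and 1 was lower (5.85%), Abcc4 at -0.90.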

How the data were processed

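Total RNA of 16 livers was hybridised by the authors to 1-colour Agilent mouse arrays, scanned and read with Agilent Feature Extraction 12.0.3.1, per the file headers. The deposited scanner files hold intensity values, background-subtracted by that software (gProcessedSignal). A deposited table of the series holds the mean processed intensity of each probe, unscaled. 0 columns lacked a listed sample.

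Control and outlier spots were left out, and spots of 1 probe were averaged. Each array was divided by its 75th percentile (137 to 294 intensity units) before the log2 was taken. The 24455 probes (59.4%) well above background on every array of at least 1 group were tested. All 4 groups entered 1 linear model with limma 3.58.1 in R 4.3.3, with empirical Bayes moderation and Benjamini-Hochberg adjustment. Permutation tests used scipy 1.17.1. The procedure was tested on simulated data. The number of arrays, 4 in each group, limits the precision, and mice were taken as the replicates, as the labels name them.

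The members and the gene lists were chosen with earlier results of these data known. Named were all members and, for each comparison, up to 3 called genes of each pathway list with the largest change. For called members, the genes most like them would have been named, and there were none. Pathway lists were sex-biased genes, receptor signalling and IGF genes, and marker lists were hepatocyte, leukocyte, endothelial, stellate, cholangiocyte, erythroid, adipocyte and pancreatic acinar genes. Jak2, Socs1, Socs3, Igf1r, Insr, Igfbp1 to Igfbp3 and the male-biased genes were named after their values were seen.

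The replicate numbers were checked for pairing. Same-numbered mice of different groups deviated together at a median r of 0.01 over 24 pairs (-0.21 to 0.36), so they were not treated as pairs. Alternatives changed the background correction (normexp with offset 50 on gMedianSignal, since gMeanSignal was not among the columns used here), the scaling, the filter, the probe rule, the blocks, the moderation and the arrays included.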

Additional observations from a re-analysis of the deposited data

Results flagged for a closer look

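Bcl6 in WT DEN + PB had 1 mouse apart from the others. Replicate 1 was at a log2 signal of 3.55 while the other three lay at 4.81 to 4.94, and its gap to the nearest mouse was 0.911 of the range of the group, above Dixon's critical value for a group of 4. The same mouse had the highest Cish signal of its group, 2.85. Of 36 gene and group combinations examined this was the only one past the critical value, and chance passes about 1 in 20. Without this mouse the change of Bcl6 with PB in WT was 0.064 in place of -0.27.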

How the results depend on the processing

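The count of called members was 0 in every comparison under the alternatives other than leaving out arrays. With single arrays left out it ranged from 0 to 1 for the genotypes under DEN, where 1 was called without KO DEN replicate 3 (Bcl6), and was 0 otherwise. A replicate block also called 0 members, and 4 of the 16 arrays correlated best with their own replicate number. The unscaled table moved the median of all probes to -0.29 for both PB in KO and the genotypes under DEN + PB. Under it Ghr turned to -0.15 (PB in KO) and -0.047 (genotypes under DEN + PB), Stat5a to -0.15 (genotypes under DEN + PB), Socs2 to -0.15 (PB in KO), and the difference of PB effects to 0.087 for Igf1 and 0.23 for Igfals. Scaling to the median turned Stat5b to -0.071 and Socs2 to -0.073 (genotypes under DEN) and the difference of PB effects to -0.014 for Prlr and -0.0060 for Stat5a, and the mean of probes gave -0.033 for Prlr. Normexp turned Ghr to 0.032 (genotypes under DEN) and Stat5b to 0.043 (under DEN + PB), and the slide block turned Igf1 to -0.023 and Socs2 to -0.30 (genotypes under DEN). None of these values was called, and the cause was not tested.

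Leaving out 1 array turned signs within these ranges. For PB in WT Igfals -0.61 to 0.064, Cish -0.58 to 0.50 and Bcl6 -0.43 to 0.064. For PB in KO Igfals -0.24 to 0.054, Socs2 -0.22 to 0.50 and Cish -0.76 to 0.71. For the genotypes under DEN Stat5b -0.084 to 0.10, Igf1 -0.019 to 0.30 and Socs2 -0.34 to 0.39. For the difference of PB effects Prlr -0.30 to 0.41, Stat5a -0.11 to 0.16, Igfals -0.54 to 0.13 and Cish -0.56 to 0.91.

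Alternatives for the correlations were chosen after seeing the data. Under the slide and replicate blocks the permutations moved mice within groups and did not keep to the block. Their p-values are therefore not tests that take the block into account. Cish and Bcl6 passed the adjustment in the unscaled table (-0.80, adjusted permutation p = 0.04), with the slide block (-0.82, p = 0.023) and with the replicate block (-0.88, p = 0.00468), and ranged from -0.91 to -0.80 with 1 array out, passing without KO DEN + PB replicate 2 (-0.85) or replicate 3 (-0.91). Cish and Socs2 passed in the unscaled table (0.71, adjusted permutation p = 0.04) and with the replicate block (0.78, p = 0.006), and Socs2 and Bcl6 did so with the replicate block (-0.86, p = 0.00558).

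Called pathway genes kept their direction. Normexp called far fewer of all probes. For PB it called 21 in WT in place of 163 and 63 in KO in place of 420. Between genotypes it called 21 under DEN in place of 750 and 50 under DEN + PB in place of 1648. Stat3 lost its call in 5 alternatives and on leaving out 8 arrays under DEN, and in 6 and 7 under DEN + PB (adjusted p up to 0.195 by limma). Igfbp5 under DEN + PB lost it in 5 alternatives (up to 0.961) and without KO DEN + PB replicate 1 or 4 or WT DEN + PB replicate 2 or 4 (up to 0.0814), and under DEN in 1 (0.748). Pik3r1 lost it in 2 (up to 0.381) and without KO DEN + PB replicate 2 or 4 or WT DEN + PB replicate 3 (up to 0.0661). Ide kept its calls with each array left out but lost them under normexp (-0.59 and -0.50, adjusted p = 0.67 and 0.671 by limma) and, under DEN, in the unscaled table (-0.79, adjusted p = 0.241). Between genotypes under DEN + PB, Hamp2 lost its call in 5 alternatives and on leaving out 6 arrays (up to 0.236), Abcc4 in 7 and 13 (up to 0.601), and Akr1b7 under normexp (0.132). Hamp2 with PB in KO lost it in 6 and on leaving out 7 arrays (up to 0.191).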
